A study of Homo sapiens with 6 samples.

Results

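The genes described here are 6 DNA mismatch repair genes, namely the MutS homologs MSH6 and MSH3, the MutL homologs PMS2, PMS1 and MLH3, and the exonuclease EXO1. They were chosen by name, with earlier results of these data known, and they do not make up the whole pathway. Each was found in a row of its own among the 27918 rows of the expression table. The table came from RNA-sequencing of HCT-116, an established human colorectal carcinoma cell line that is known to be deficient in mismatch repair and to have unstable microsatellites. Cells received a GapmeR at 10 nM, which is an antisense oligonucleotide whose DNA center recruits RNase H to the paired RNA. The GapmeR was directed against the long noncoding RNA CASC9 (GapC9, 3 libraries) or was the negative control GapmeR (GapNC, 3 libraries), and every library came from the same cell line after lipid transfection. The study's text gives 24 h of transfection in its results and 48 h for transfected cells in general in its methods. The comparison addressed which genes change when CASC9 is targeted, and the question here was whether the mismatch repair genes were among them.

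Mismatch repair removes bases that DNA polymerase has paired wrongly. In the MutS step, a dimer that contains MSH6 binds single mispairs and short loops, whereas a dimer that contains MSH3 binds mainly longer loops. A MutL dimer that contains PMS2 then nicks the new strand, EXO1 removes the stretch that holds the error, and a polymerase fills the gap behind a sliding clamp. Loss of this pathway is a known cause of microsatellite instability in colorectal cancer.

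The libraries held 22.8 to 24.3 M (mega) fragments, estimated from the smallest steps between low values, and their FPKM (fragments per kilobase of transcript per mega of mapped fragments) summed to between 152661 and 166816. GapNC replicate 1 stood apart in base composition, because its deviation from the mean of all libraries rose with the GC content of the gene (Spearman's rho = 0.62 across 10117 genes). In the other libraries this coefficient lay between -0.38 and 0.02. The table did not show the knockdown, which the study reported by RT-qPCR in HCT-116 cells transfected with the CASC9 GapmeR. CASC9 was listed at 0, 0.011 and 0 FPKM in the GapNC libraries and at 0.053, 0.11 and 0 FPKM in the GapC9 libraries (exact two-sided permutation test, p = 0.4, where 0.1 is the smallest p that 3 against 3 libraries allow), so the groups are named here by their labels. The 6 epithelial marker rows summed to between 986 and 1392 FPKM in every library, with VIL1 near 0, whereas the fibroblast rows summed to 4.19 to 5.71 FPKM and the immune and endothelial rows to at most 0.11 FPKM each. Of these rows, 5 of the 6 epithelial and 2 of the 4 fibroblast rows were tested, and none was called changed. EPCAM was higher and CLDN4 lower in every GapC9 library than in every GapNC library, without a call. The immune and endothelial rows had means under 0.1 FPKM and were not tested. Since these are bulk samples, fewer cells of a type and less RNA per cell cannot be told apart.

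None of the 6 mismatch repair genes was called changed between GapC9 and GapNC. EXO1 was 25.0% lower in GapC9 by its mean FPKM and MSH6 was 18.7% lower, each with every GapC9 library below every GapNC library, and neither passed the adjusted threshold. The means of PMS2, MSH3 and MLH3 were 6.23% to 8.04% higher than in GapNC, and the mean of PMS1 was 16.3% lower. All 6 genes passed the filter of a mean of at least 0.1 FPKM, and none was listed at 0 in any library. The limma test on log2(FPKM + 0.1) was applied to 16028 rows, with p-values adjusted by the Benjamini-Hochberg method over all of them. By the fold rule, a ratio of means of at least 2 or at most 0.5 with an unadjusted p under 0.05, 0 of the 6 genes were called, where 6.42% of all tested rows were. By an adjusted p under 0.05, 0 of the 6 were called, where 6.99% of all rows were. At an unadjusted p under 0.05, 1 of the 6 genes was lower (EXO1) and 0 were higher, where 25.9% of all rows had such a p (16.8% lower and 9.09% higher). For 2 of the 6 genes, both lower in GapC9, no library of one group fell within the range of the other, as was the case for 34.2% of all rows (21.6% lower and 12.6% higher). The median log2 fold change of the 6 genes was -0.07, with 3 genes below 0 and 3 above, and that of all rows tested was -0.08. The median of the 6 was -0.21 without GapNC replicate 1 (all rows, -0.06) and -0.13 after correction for GC content (all rows, 0.02). The shares lay near the background. Nothing in the labels says that the replicates were separate cultures, and p-values therefore measure only the spread between these libraries.

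The promoters of these genes are shown because E2F, a factor that drives genes of S phase, is known to act on replication and repair genes, and because short runs that match its binding motif were found in 4 of the 6. The windows ran from 250 bases before to 50 bases after the RefSeq start (GRCh38.p14), and all 6 genes matched a window. The motif was searched on both strands as TTTGGCGC, TTTCGCGC, TTTCCCGC or TTTGCCGC, which 3.33% of 27305 such windows held. It was held by the windows of MSH6, PMS2, EXO1 and MSH3, of which 3 are shown. The windows of the 6 genes held 51% to 78% GC, and windows of like GC content were not compared. Capitals mark the motif in each line, written 5′ to 3′ on the strand of the gene.
MSH6, chr2:47783137-47783166, + strand: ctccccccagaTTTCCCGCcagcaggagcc
PMS2, chr7:6009131-6009160, - strand: cgggaagtattTTTGCCGCcccgcccggaa
EXO1, chr1:241848197-241848226, + strand: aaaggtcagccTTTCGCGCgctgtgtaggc
The run began 4 bases after the RefSeq start in MSH6, 5 bases after it in EXO1 and at -43 from it in PMS2. The gene spans given below are those of GENCODE, and for MSH6 and EXO1 they begin further upstream. By the GENCODE annotation of GRCh38, the MSH6 and EXO1 stretches lie in an exon of the gene itself, in its UTR, and the PMS2 stretch lies outside any annotated gene. No window of PMS1 or MLH3 held these letters. Other motifs were common in windows of all genes, with CCAAT in 35.7% of them (and in those of MSH6, PMS1 and PMS2) and GGGCGG in 44.6% (and in 5 of the 6 genes, MLH3 being without it). TATAAA stood in 12.0% of all windows and TTTGAA in 15.4%, and in 0 of the 6 each. These matches describe sequence and were not tested as binding sites. The genes with the E2F letters included both of those that were lower in every GapC9 library, MSH6 and EXO1, and also PMS2 and MSH3, whose groups overlapped. A link between the letters and these values was not tested.

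MSH6 (row matched to ENSG00000116062, chromosome 2, 47695530 to 47810101, + strand of GRCh38) carries the subunit that recognizes single mispairs. It was measured at 11.5, 13.7 and 12.3 FPKM in GapNC replicates 1 to 3 and at 10.9, 8.59 and 11.0 FPKM in GapC9 replicates 1 to 3. Every GapC9 library was below every GapNC library, but the gap between the lowest GapNC and the highest GapC9 library was narrow, and GapC9 replicate 2 was the lowest. The mean was 12.5 ± 1.10 FPKM (SD, n = 3) in GapNC and 10.2 ± 1.36 FPKM in GapC9, and the log2 fold change of -0.30 (SE 0.14, 95% interval -0.64 to 0.04) did not pass (limma, adjusted p = 0.233). Without GapC9 replicate 2 it was -0.19. MSH6 overlaps FBXO11 on the opposite strand by 20786 bases as annotated, and strandedness of the reads was not given in the sources used here, so reads of these genes may not be separated.

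MSH3 (ENSG00000113318, chromosome 5, 80654648 to 80876460, + strand) carries the subunit that recognizes longer loops. It was measured at 0.688, 0.828 and 0.772 FPKM in GapNC and at 0.756, 0.832 and 0.861 FPKM in GapC9. The groups overlapped, with the lowest value in GapNC replicate 1 and the highest in GapC9 replicate 3. The mean was 0.763 ± 0.0703 FPKM in GapNC and 0.817 ± 0.0540 FPKM in GapC9, and the log2 fold change was 0.09 (SE 0.14, 95% interval -0.26 to 0.43, limma, adjusted p = 0.730). These values rest on about 64 to 83 fragments per library, for which counting alone gives an SD of 11.0% to 12.5%. MSH3 overlaps genes on the opposite strand, AC022493.1 and AC022493.2 among them, so reads of these genes may not be separated.

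EXO1 (ENSG00000174371, chromosome 1, 241847967 to 241895148, + strand), the exonuclease that excises the strand with the error, differed most among the 6. It was measured at 8.97, 10.8 and 10.6 FPKM in GapNC and at 7.28, 7.90 and 7.64 FPKM in GapC9. All 3 GapC9 libraries lay close together and below all 3 GapNC libraries, of which replicate 1 was the lowest. The mean fell from 10.1 ± 1.02 to 7.61 ± 0.316 FPKM, a log2 fold change of -0.41 (SE 0.11, 95% interval -0.69 to -0.13), with an unadjusted p of 0.0119 and an adjusted p of 0.0908 (limma). EXO1 passed the adjusted threshold in 2 of 17 alternatives, after correction for GC content (log2 fold change -0.44, adjusted p = 0.0131) and without GapNC replicate 1 (-0.49, adjusted p = 0.0483). Over all 17 its adjusted p ran from 0.0131 to 0.220. No annotated gene overlaps EXO1.

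PMS2 (ENSG00000122512, chromosome 7, 5973239 to 6009125, - strand) carries the nicking subunit of the main MutL dimer. It was measured at 9.12, 8.84 and 8.71 FPKM in GapNC and at 9.48, 10.1 and 8.78 FPKM in GapC9. The groups overlapped, although only GapC9 replicate 3 was within the GapNC range. The mean was 8.89 ± 0.207 FPKM in GapNC and 9.44 ± 0.641 FPKM in GapC9, and the log2 fold change was 0.08 (SE 0.10, 95% interval -0.16 to 0.32, limma, adjusted p = 0.628). PMS2 has near-identical pseudogene copies, so its value depends on how shared reads were assigned and is uncertain.

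PMS1 (ENSG00000064933, chromosome 2, 189784085 to 189877629, + strand) and MLH3 (ENSG00000119684, chromosome 14, 75013764 to 75051532, - strand) carry subunits of minor MutL dimers, of which that with MLH3 is known for its part in meiotic crossing over. PMS1 was measured at 2.75, 4.08 and 4.55 FPKM in GapNC and at 3.13, 3.04 and 3.36 FPKM in GapC9. The GapC9 libraries lay within the range of the GapNC libraries, which was set by the low GapNC replicate 1. The mean was 3.79 ± 0.933 FPKM in GapNC and 3.18 ± 0.161 FPKM in GapC9, with a log2 fold change of -0.22 (SE 0.20, 95% interval -0.71 to 0.27, limma, adjusted p = 0.533). Without GapNC replicate 1 it was -0.43 (adjusted p = 0.0936) and without GapNC replicate 3 it was -0.08, and over 17 alternatives the adjusted p ran from 0.0936 to 0.842.

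MLH3 was measured at 0.509, 0.918 and 0.727 FPKM in GapNC and at 0.804, 0.713 and 0.811 FPKM in GapC9. The highest and the lowest of these values were both in GapNC, so the groups overlapped fully. The mean was 0.718 ± 0.204 FPKM in GapNC and 0.776 ± 0.0544 FPKM in GapC9, with a log2 fold change of 0.13 (SE 0.22, 95% interval -0.41 to 0.67, limma, adjusted p = 0.754). Without GapNC replicate 1 it turned to -0.069, and the values rest on about 92 to 170 fragments per library.

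GapNC replicate 1, the library with the strongest GC trend, held the lowest GapNC value of 5 of the 6 genes and the highest of PMS2. The GC content of the longest listed transcript was 39.9% in PMS1, 40.8% in MSH6, 41.6% in MLH3, 42.1% in MSH3, 42.4% in EXO1 and 46.2% in PMS2. After correction for GC content the log2 fold changes were -0.37 for MSH6, 0.05 for MSH3, -0.44 for EXO1, 0.13 for PMS2, -0.31 for PMS1 and 0.08 for MLH3, all with the sign they had before. The plot of the genes under each alternative shows the same 3 genes below 0 and the same 3 above 0 under every alternative that gave all 6 a value, except the one without GapNC replicate 1.

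**Figure D1:**
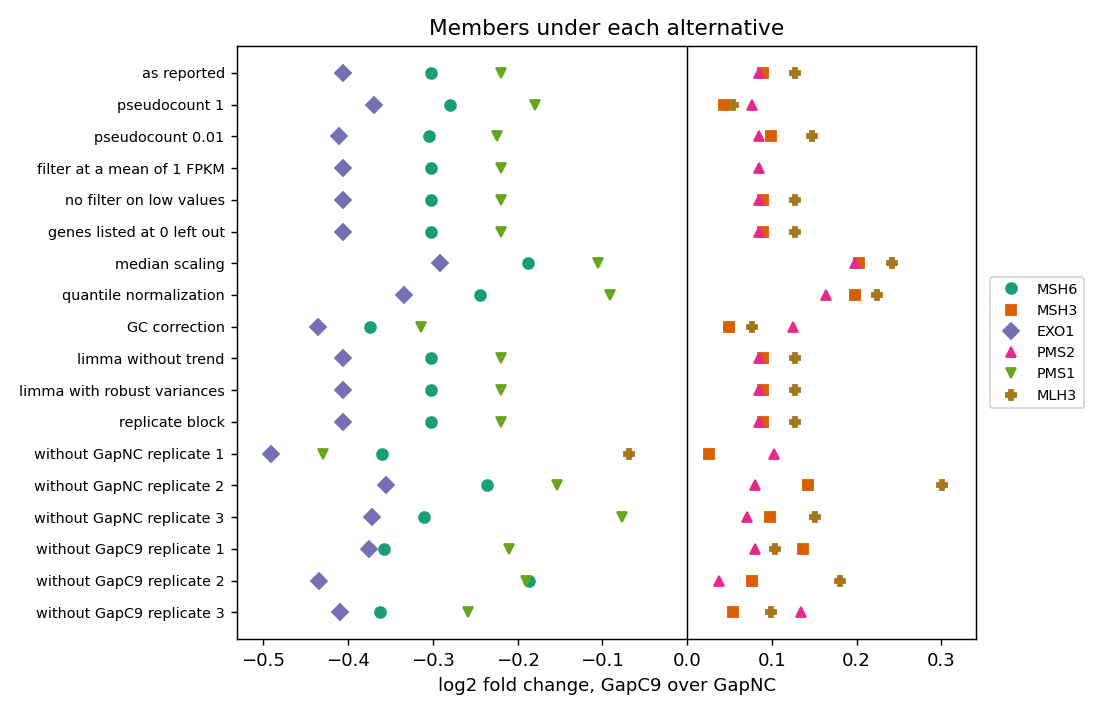
Log2 fold change, GapC9 over GapNC (x axis), of each mismatch repair gene (symbols) as reported and under each alternative (y axis); MSH3 and MLH3 have no value under the filter at a mean of 1 FPKM. EXO1, MSH6 and PMS1 are below 0 throughout, and MLH3 crosses to -0.069 without GapNC replicate 1.

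Levels between genes were compared per length, in FPKM. In GapNC the order was MSH6, EXO1, PMS2, PMS1, MSH3 and MLH3, and the libraries of EXO1 and PMS2 overlapped, as did those of MSH3 and MLH3. In GapC9 PMS2 stood above EXO1 without overlap, and MSH6 overlapped with PMS2, as MSH3 did with MLH3. Within the MutL genes, PMS2 made up 66.6 ± 6.16% of the summed FPKM of PMS2, PMS1 and MLH3 in GapNC (SD, n = 3) and 70.4 ± 2.50% in GapC9. PMS1 made up 28.1 ± 5.29% and 23.8 ± 1.98%, and MLH3 5.32 ± 1.26% and 5.80 ± 0.574%, all within overlapping ranges.

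Ratios between genes of the same library do not depend on its scaling. They can still carry its GC trend where the genes differ in GC content, which was not tested. A set of 6 ratios was chosen after the values had been seen. The ratio of MSH6 to MSH3, the alternative MutS subunits, was 16.7, 16.5 and 16.0 in GapNC and 14.4, 10.3 and 12.8 in GapC9. All GapC9 libraries were lower, at a mean of 12.5 ± 2.07 against 16.4 ± 0.387. MSH3 rests on about 64 to 83 fragments per library, for which counting alone gives an SD of 11.0% to 12.5%. The GapNC ratios lay closer together than that, so their small spread understates the error of this ratio. EXO1 to PMS2 was 0.984, 1.23 and 1.22 in GapNC and 0.768, 0.785 and 0.870 in GapC9, a mean of 1.14 ± 0.138 against 0.808 ± 0.0545, again with no overlap. PMS1 to MLH3 was also lower in every GapC9 library, at 4.10 ± 0.190 against 5.37 ± 0.907. MLH3 rests on about 92 to 170 fragments per library. The 3 ratios without overlap each reached the smallest p that the exact two-sided permutation test allows with 3 against 3 libraries (p = 0.1, adjusted p = 0.2 over the 6 ratios), so this test cannot reach p = 0.05 here. MSH6 and EXO1 already did not overlap between the groups as single genes, as was the case for 34.2% of all rows. Ratios of other gene pairs were not computed, so no background share stands beside these. PMS2 to PMS1 (2.46 ± 0.745 against 2.98 ± 0.346), PMS2 to MLH3 (13.2 ± 4.26 against 12.2 ± 1.68) and EXO1 to MSH6 (0.810 ± 0.0429 against 0.760 ± 0.139) overlapped between the groups (exact permutation test, p = 0.4, 0.8 and 0.5).

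**Figure D2:**
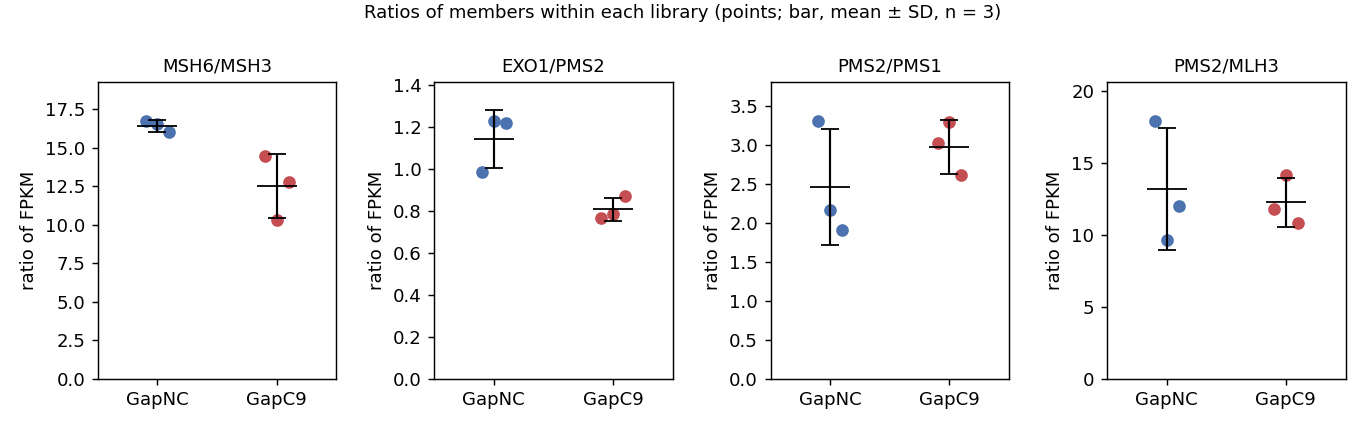
Ratio of the FPKM of 2 genes within each library (y axis, from 0) for 4 of the 6 ratios, in GapNC and GapC9 (x axis). Points are libraries and bars are the mean ± SD. MSH6/MSH3 and EXO1/PMS2 are lower in all GapC9 libraries, and both ratios with PMS2 on top overlap.

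Genes of the rest of the pathway and of related pathways were taken from 8 lists with 81 rows, of which 78 were tested. By the fold rule 4 of the 78 rows were called (5.13%), 1 higher and 3 lower, where 2.1% of all rows were higher and 4.32% were lower. By an adjusted p under 0.05, 5 of the 78 were called (6.41%), 1 higher and 4 lower, where 1.89% of all rows were higher and 5.1% were lower. Over all rows tested, 67.3% of the calls by the fold rule were lower in GapC9, a share that was 47.6% after correction for GC content and 45.5% once the libraries were scaled to equal medians, which moved the median log2 fold change of all rows from -0.08 to 0.04. The genes named as called below kept their direction under every alternative that was run. The calls by adjusted p of RFC5, HELLS, OGG1 and WRN were lost when any library but GapNC replicate 1 was left out (adjusted p up to 0.125), and that of MSH4 when GapNC replicate 2 or any GapC9 library was (up to 0.0698).

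The machinery that acts after recognition, the clamp, clamp loader, single-strand binding proteins, polymerase and ligase, had 15 of 16 genes tested, with a median log2 fold change of 0.05. By the fold rule 0 were called, and by adjusted p only RFC5 was, a subunit of the clamp loader. RFC5 was measured at 23.6, 25.6 and 24.1 FPKM in GapNC and at 17.3, 17.2 and 17.1 FPKM in GapC9. All GapC9 libraries lay close together below the GapNC libraries, and the log2 fold change was -0.50 (SE 0.084, limma, adjusted p = 0.0308). Its adjusted p was 0.0596 with median scaling, 0.0544 with quantile normalization and 0.0536 with limma without a variance trend. RFC5 overlaps WSB2 and AC131159.2 on the opposite strand, so reads of these genes may not be separated. The most expressed gene of the list was PCNA, the sliding clamp itself, at 128 ± 13.3 FPKM in GapNC and 145 ± 13.0 FPKM in GapC9 (log2 fold change 0.17, adjusted p = 0.388). The least expressed was RPA4, a little used single-strand binding subunit, which was under the filter and listed at 0 in 1 GapNC library and all GapC9 libraries.

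The MutS homologs that act in meiosis, MSH4 and MSH5, differed in their values. MSH4 (chromosome 1, 75796882 to 75913238, + strand of GRCh38), which is known to act on crossovers and not in mismatch repair, was measured at 0.0918, 0.0854 and 0.123 FPKM in GapNC and at 0.735, 0.660 and 0.720 FPKM in GapC9. All GapC9 libraries were far above all GapNC libraries, at values that overlapped those of MLH3 in GapC9. The mean rose from 0.10 ± 0.020 to 0.705 ± 0.0396 FPKM, a ratio of 7.04 and a log2 fold change of 2.01 on the log2(FPKM + 0.1) scale (SE 0.18, limma, adjusted p = 0.0147), and MSH4 was called by both rules. With a pseudocount of 1 the log2 fold change was 0.63, and with 0.01 it was 2.71. The row holds 1 transcript, with no overlapping gene, and its values correspond to about 8 to 12 fragments in the GapNC libraries and 62 to 66 in the GapC9 libraries. MSH5, its partner subunit, was at 3.63 ± 0.0632 FPKM in GapNC and 3.53 ± 0.170 FPKM in GapC9 (log2 fold change -0.04, 95% interval -0.29 to 0.21, adjusted p = 0.836), in a row that is joined with SAPCD1. Its sign turned under other scalings.

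Among 6 genes listed by hand as modulators of mismatch repair and 6 nucleases and helicases listed beside EXO1, each list had 1 call by adjusted p. Whether the called genes act in mismatch repair in these cells was not tested. HELLS, a chromatin remodeler of the SNF2 family, was measured at 5.25, 9.14 and 7.15 FPKM in GapNC and at 2.24, 2.95 and 2.85 FPKM in GapC9, with no overlap. Its log2 fold change was -1.36 (SE 0.23, adjusted p = 0.0314), and it was called by both rules. Its row is joined with AL138759.1. WRN, a helicase on which cells with unstable microsatellites are known to depend, was measured at 6.11, 6.63 and 6.85 FPKM in GapNC and at 3.71, 3.55 and 3.95 FPKM in GapC9. The groups lay well apart, with a log2 fold change of -0.79 (SE 0.11, adjusted p = 0.0211) that did not reach the fold rule. WRN overlaps SUMO2P16 and AC009563.1 on the opposite strand.

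Of the 12 glycosylases and direct reversal enzymes, which remove or repair damaged and mispaired bases, 9 had a log2 fold change below 0, or 7 once the libraries were scaled to equal medians, where 56.4% of all rows were below 0, or 46.5% after that scaling. The median of the list was -0.32. OGG1, the glycosylase for oxidized guanine, was called lower by both rules, and none was called higher. OGG1 was measured at 1.36, 1.27 and 1.09 FPKM in GapNC and at 0.580, 0.471 and 0.438 FPKM in GapC9. All GapC9 values were less than the lowest GapNC value, and the log2 fold change was -1.17 (SE 0.16, limma, adjusted p = 0.0238), or -0.58 with a pseudocount of 1. It overlaps CAMK1 and TADA3 on the opposite strand.

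**Figure D3:**
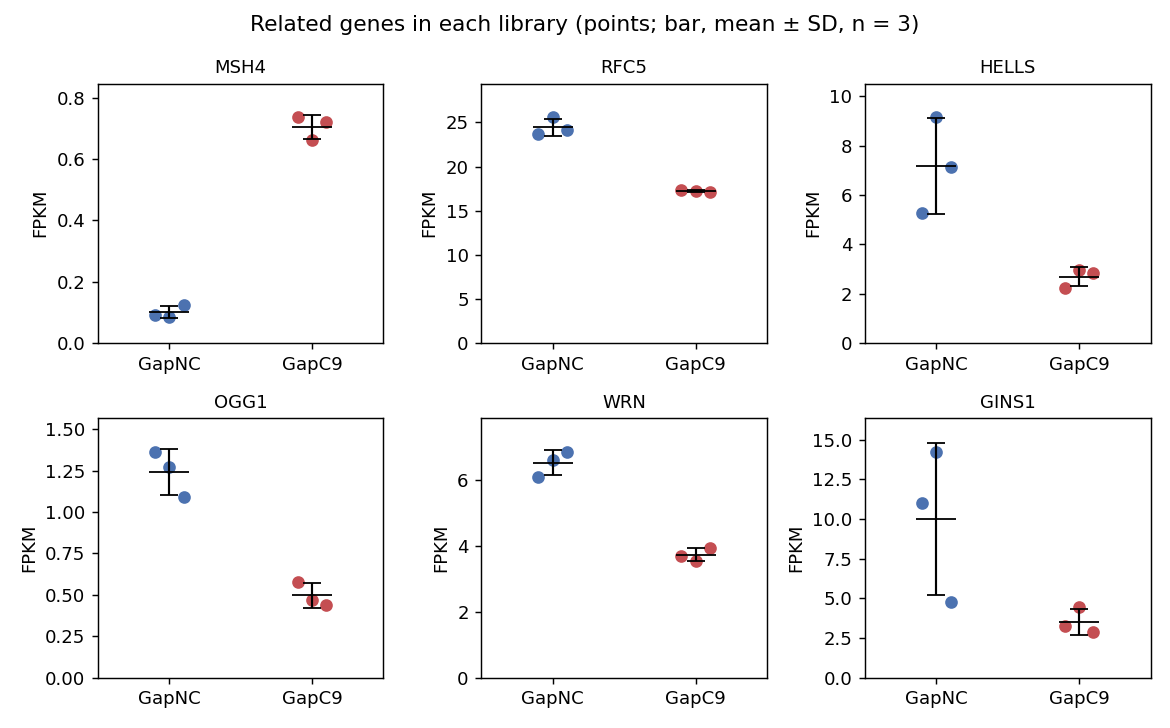
FPKM (y axis, from 0) of MSH4, RFC5, HELLS, OGG1, WRN and GINS1 in the 3 GapNC and the 3 GapC9 libraries (x axis). Points are libraries and bars are the mean ± SD. The groups do not overlap in any of the 6 genes, with MSH4 higher in GapC9 and the others lower.

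Of the genes that lie next to a mismatch repair gene, 4 are described, and 0 of these 4 were called by either rule. ORMDL1, a regulator of sphingolipid synthesis that faces PMS1 with an overlap of 287 bases, was at 6.26 ± 1.19 FPKM in GapNC and 6.48 ± 0.229 FPKM in GapC9 (log2 fold change 0.07, 95% interval -0.31 to 0.45). ACYP1, an acylphosphatase gene that lies upstream of MLH3 on the same strand, was at 4.90 ± 0.277 and 5.36 ± 0.244 FPKM (0.13, -0.12 to 0.38), and FBXO11, a substrate-binding subunit of a ubiquitin ligase, was at 7.02 ± 1.39 and 8.62 ± 1.05 FPKM (0.30, -0.15 to 0.75). ACYP1 overlaps ZC2HC1C on the opposite strand.

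PMS2 and AIMP2, a scaffold protein of the aminoacyl-tRNA synthetase complex, start 120 bases apart on opposite strands. The stretch between their first exons is shown because any element in it lies before both genes. Capitals mark the letters of GGGCGG or CCAAT on either strand, and the E2F letters of PMS2 given above overlap the capitals near its end.
AIMP2 to PMS2, chr7:6009126-6009244, - strand: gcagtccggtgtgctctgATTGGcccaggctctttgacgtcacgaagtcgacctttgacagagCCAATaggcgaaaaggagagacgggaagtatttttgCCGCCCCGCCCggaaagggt
AIMP2 was measured at 19.1, 21.1 and 15.2 FPKM in GapNC and at 12.9, 15.9 and 16.9 FPKM in GapC9, with overlap between the groups. Its log2 fold change was -0.28 (95% interval -0.69 to 0.13, adjusted p = 0.355), beside 0.08 for PMS2. AIMP2 overlaps EIF2AK1 on the opposite strand.

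Copies of PMS2 are pseudogenes that share long stretches of its sequence, and 9 of 11 such rows were tested, with a median log2 fold change of 0.02 and 0 calls by either rule. The nearest to a call were PMS2P3 and PMS2CL. PMS2CL was measured at 6.64, 7.45 and 6.67 FPKM in GapNC and at 8.83, 8.94 and 8.68 FPKM in GapC9, so that all GapC9 libraries were higher (log2 fold change 0.35, 95% interval 0.11 to 0.59, limma, adjusted p = 0.0919). PMS2P3 was at 11.5 ± 1.08 FPKM in GapNC and 18.4 ± 2.64 FPKM in GapC9 (log2 fold change 0.66, adjusted p = 0.0507), in a row joined with POM121C, so the value does not belong to PMS2P3 alone. PMS2P1 was at 5.94 to 6.69 FPKM over all libraries. PMS2P2, PMS2P4, PMS2P5, PMS2P6, PMS2P7 and PMS2P10 lay between 0.169 and 1.77 FPKM, and PMS2P9 and PMS2P11 were under the filter. These rows share reads with each other and with PMS2 and are uncertain.

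Genes of E2F and S phase filled 23 rows, since TYMS has 2. By the fold rule 1 was called, GINS1, a subunit of the replicative helicase, at 11.0, 14.2 and 4.78 FPKM in GapNC and 3.23, 4.43 and 2.90 FPKM in GapC9. GapNC replicate 3 was close to the GapC9 libraries, and the log2 fold change of -1.37 (SE 0.42) had an adjusted p of 0.109. By adjusted p 0 of the 23 were called, and at an unadjusted p under 0.05 there were 3 higher and 5 lower, where 9.09% of all rows were higher and 16.8% lower. The median of the list was -0.16, and 14 of the 23 rows were below 0, or 13 after scaling to equal medians, where 56.4% and 46.5% of all rows were.

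**Figure D4:**
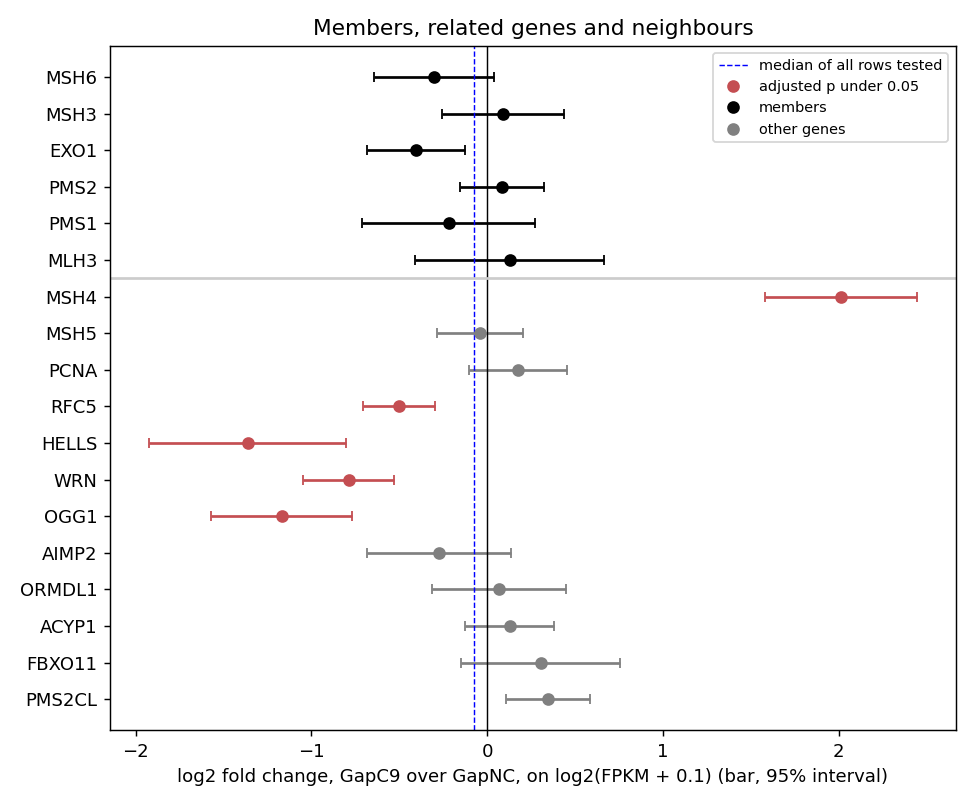
Log2 fold change, GapC9 over GapNC, on log2(FPKM + 0.1) (x axis; bars, 95% interval) of the 6 mismatch repair genes (above the grey line) and of related and neighboring genes (y axis). The dashed line is the median of all rows tested, -0.08, and red marks an adjusted p under 0.05: none of the 6 is red, and MSH4 lies at 2.01.

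The genes whose values ran most like those of each mismatch repair gene were found by Pearson's r of log2(FPKM + 0.1) over the 6 libraries, among 9094 or 9095 single-gene rows that averaged at least 1 FPKM and were never listed at 0. The libraries share their group, base composition and scaling. EXO1 was followed most closely by SPAG1 and XRCC5 (r = 0.996 each), MSH3 by CSPP1 (0.996) and GNPNAT1 (0.993), and PMS1 by ABHD3 and ATF7IP (0.988 each). MSH6 was followed by RBMX (0.977) and PIP4K2A (0.975), PMS2 by AGA (0.972) and ANKEF1 (0.970), and MLH3 by NUF2 (0.972) and LAMA2 (0.967). MSH3 and MLH3 averaged under 1 FPKM and so could not be matches. None of MSH6, EXO1, PMS2 and PMS1 was the closest match of another of the 6 genes. Each match was picked as the highest of 9094 or 9095 values of r over only 6 libraries and was not tested.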

How the data were processed

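Poly(A) RNA of 6 HCT-116 libraries was sequenced as read pairs. After alignment with HISAT, StringTie was used by the authors to compute the deposited FPKM values, which stand in 1 table whose loci can join neighboring genes. The submitters' processing notes list Bowtie 0.12.2, HISAT2 2.0 and StringTie 1.3.0, and a mouse build, whereas the methods name a human genome, and the build itself is not given in the sources used here. No deposited fold change or p-value column was used, and 0 columns of other samples were found.

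Groups came from the labels. In R 4.3.3, limma 3.58.1 (lmFit, eBayes with a variance trend) was fitted to log2(FPKM + 0.1) of the 16028 rows with a mean of at least 0.1 FPKM, since the authors' edgeR test needs counts that the table does not hold. The script was tested on simulated data with 100 changes of log2 size 1 and 100 of log2 size 2. By adjusted p it recovered 47 and 77 of these, and by the fold rule 44 and 96. It called 9 unchanged rows by adjusted p. Errors were drawn independently for each row and library, without a GC trend shared within a library. That number therefore does not cover false calls from such a trend. Smaller changes, such as those of the mismatch repair genes, were not simulated, so the lack of a call does not exclude them. Same-numbered libraries deviated together with r of 0.097, 0.040 and 0.024, so the numbers were not taken as pairs. Gene positions came from GENCODE (Ensembl) annotation of GRCh38 through the transcripts listed in the table. Fragments per gene were estimated for the longest listed transcript from the smallest FPKM steps, and their intervals cover counting error only. Python 3.11.15, pandas 2.3.3 and matplotlib 3.10.9 handled annotation and figures.

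The 6 genes, the lists and the tests were chosen with earlier results of these data known. All 6 genes are named with every library; genes of the lists are named where called, as are the meiotic homologs, 4 neighbors, PMS2 copies, the most and least expressed of the repair machinery, and the 2 genes most like each of the 6. Alternatives changed the pseudocount (1 or 0.01), the filter (a mean of 1 FPKM, or none), rows with a 0, scaling (medians, quantiles, GC content by lowess with a span of 0.3), the variance model, the fold, a replicate block, and each library in turn. A further gene of the lists is counted but not reported here.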

Additional observations from a re-analysis of the deposited data

How the results depend on the processing

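Counts are given as higher and lower in GapC9. For all rows tested, the fold rule gave 336 and 693. With a filter at a mean of 1 FPKM it gave 116 and 380, with median scaling 519 and 433, with no filter 555 and 983, and with GC correction 466 and 424. Adjusted p gave 303 and 817, with no filter 146 and 346, with GC correction 1136 and 1237, and 481 and 516 lower with median scaling and quantile normalization. With single libraries left out, the fold rule gave 323 to 386 higher and 554 to 809 lower, and adjusted p gave 16 to 241 higher and 17 to 573 lower. The replicate block gave 0 and 0 of all rows, and 0 and 0 of the lists by adjusted p. The block changed no call of the 6 mismatch repair genes.

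Of the 6 genes, 1 was lower by adjusted p (EXO1) with GC correction and without GapNC replicate 1, and 0 under all others. Among the lists the fold rule gave 1 higher and 3 lower, with 0 higher under a filter at a mean of 1 FPKM. Adjusted p gave 1 higher and 4 lower, with 2 higher when genes listed at 0 were left out or under median scaling or quantile normalization, 8 higher under GC correction, and 2 lower with no filter. Leaving out single libraries gave 0 to 2 higher and 0 to 5 lower by adjusted p, and 1 to 2 higher and 2 to 4 lower by the fold rule. RFC5, HELLS, OGG1 and WRN kept their adjusted call only without GapNC replicate 1 (highest adjusted p = 0.125), and MSH4 lost it without GapNC replicate 2 or any GapC9 replicate (highest 0.0698). Fewer libraries enter those fits. With no filter the adjusted p of HELLS was 0.0543 and that of OGG1 0.0503, and RFC5 also passed the threshold under neither scaling to medians or quantiles nor limma without a trend (0.0536 to 0.0596).

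The log2 fold change turned its sign for MSH5 under median scaling (0.074), quantile normalization (0.083) and GC correction (0.12), and for ORMDL1 under GC correction (-0.12). With single libraries left out, that of MLH3 ran from -0.069 to 0.30 and that of ORMDL1 from -0.061 to 0.21, both below 0 only without GapNC replicate 1. The cause was not tested. For MSH3, counting alone gives an SD of 11.0% to 12.5% per library.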
